A study of Mus musculus with 5 samples.

Results

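The genes described here encode the machinery that copies DNA in S phase. They were fixed as a list of 48 symbols that covers origin licensing, the replicative helicase, the polymerases, the sliding clamp and the supply of nucleotides. All 48 symbols were found, with 1 transcript row each, among the 14697 transcripts of the deposited expression table. The table compares 2 groups of mouse embryos (C57BL/6) at embryonic day 12.5. RNA came from the atrioventricular canal (AVC), the part of the heart where the endocardial cushions form the valve precursors. The wild-type group (WT) carried floxed Sox9 alleles and no Cre (Sox9fl/fl:+/+). The Sox9 cKO group carried the same floxed alleles and Tie2-Cre (Sox9fl/fl:Tie2-Cre/+), so the groups differ in Cre as well as in Sox9. Tie2-Cre acts in endothelial cells and their descendants, among them cushion mesenchyme, and also in blood lineages, so myocardium and epicardium of the same dissection are not targeted. Dissected AVCs were genotyped, checked for Sox9 deletion and pooled for each genotype.

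Before S phase, the origin recognition complex (ORC) marks origins, and CDC6 and CDT1 load the ring-shaped MCM helicase onto them. The kinase CDC7, CDC45 and the GINS complex then turn the loaded ring into a moving helicase. Polymerase alpha with its primase starts each new strand, and polymerases delta and epsilon extend it while held by the clamp PCNA, which the RFC complex loads. Transcription of many of these genes rises before S phase under E2F transcription factors, so their RNA is commonly used as a sign of how many cells in a tissue are cycling. Cushion mesenchyme at this stage is a dividing tissue.

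Expression is given in nFPKM, the authors' further normalized FPKM (fragments per kilobase, scaled to library size). FPKM-type values are per length, so levels were set between genes. How nFPKM was derived from FPKM is not stated, so such comparisons assume that the further normalization kept this property. The table holds 1 value per genotype, in which the authors merged 2 libraries. The spread between replicates and the read depth are therefore unknown, no test was possible, and differences are described by size alone. The ratio of cKO to WT was taken on the log2(nFPKM + 1) scale. The median of this ratio over the 13793 transcripts that reached 1 nFPKM in WT or cKO was -0.11. This median was subtracted from the ratio of each gene to give its "relative log2 ratio". Some of the genes, such as Pcna and Tyms, have processed pseudogenes in the mouse. How reads shared with such copies were assigned is not stated, so these values are uncertain to that extent. Sox9, the targeted gene (NM_011448), stood at 36.7 nFPKM in WT and 14.7 nFPKM in cKO, with the relative log2 ratio at -1.16. All 12 markers each of valve mesenchyme, endothelium and cardiomyocytes, the labelled cell types, were present, with the lowest WT level at 20.0, 20.9 and 106 nFPKM respectively.

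Replication genes stood close to the all-transcript median in the Sox9 cKO AVC. Of the 48 genes, 36 (75%) were within 1.1-fold of that median, against 46.1% of all transcripts and 50.8% of the 10290 transcripts in the same range of mean level (6.05 to 219 nFPKM). These 10290 are called transcripts at similar level here, but they were matched by this wide range alone. Their median WT level was 31.7 nFPKM, against 52.8 nFPKM for the 48 genes, so the backgrounds lean to lower levels. A relative difference of at least 1.2-fold was reached by 4 genes, or 8.33%, against 27.5% of all transcripts and 21.9% of those at similar level. Prim2 was the 1 gene on the higher side (background 14.4%), and Gins3, Rfc3 and Fen1 were the 3 on the lower side (background 13.1%). No gene reached 2-fold in either direction, where the background was 0.834% higher and 0.674% lower. The median relative log2 ratio of the 48 genes was -0.04, beside 0 for all transcripts by construction and 0.00 for those at similar level. The list lay slightly to the lower side, with 31 genes below the all-transcript median and 17 above it, against 50% of all transcripts below. Without the centring, 43 of the 48 genes were lower in cKO as deposited, against 68% of all transcripts. On that scale, 8 of the 48 were at least 1.2-fold lower and 0 at least 1.2-fold higher, while 23.8% of all transcripts were at least 1.2-fold lower and 8.73% at least 1.2-fold higher.

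**Figure D1:**
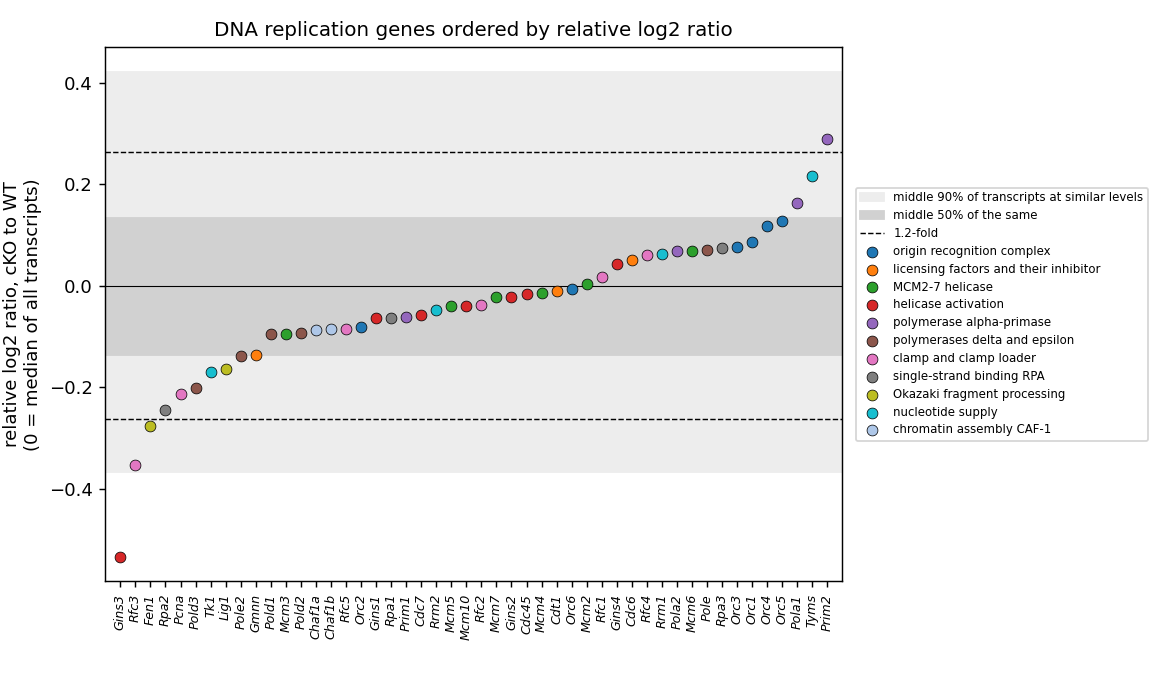
Relative log2 ratio of cKO to WT (vertical axis, 0 at the median of all transcripts) for the 48 replication genes, ordered from lowest to highest and coloured by role. Grey bands give the middle 90% and middle 50% of the 10290 transcripts at similar level, dashed lines mark 1.2-fold, and Gins3 is the only point outside the wider band.

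The summed level of the 48 genes was 3143 nFPKM in WT and 2839 nFPKM in cKO. This was 0.327% of all nFPKM in WT and 0.296% in cKO. Globin transcripts held 4.24% of all nFPKM in WT and 9.65% in cKO, and with globins left out the replication genes held 0.341% and 0.327%. Replication genes were among the more abundant transcripts of this tissue. Of the 48, 44 stood above the WT median of all transcripts, 21.8 nFPKM, and their own median was 52.8 nFPKM in WT and 46.0 nFPKM in cKO. The lowest was Orc1 and the highest Rrm1 in both genotypes.

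Promoters of these genes were searched for a sequence feature that was not used to choose them. RefSeq promoter windows of the build GRCm38.p6 (250 bases before to 50 after the start) matched 40 of the 48 symbols, with 49 windows in all, and a gene was counted if any of its windows held a match. The E2F strings TTTCCCGC, TTTCGCGC, TTTGCCGC and TTTGGCGC were searched on both strands, and matches may overlap each other. At least 1 match was found in 15 of the 40 genes (37.5%), against 4.66% of the 9846 genes of the expression table with a promoter and 2.61% of all 27025 genes in the promoter table. With the bases before the start alone, 9 of the 40 genes had a match (22.5%), against 3.89% and 2.16%. The CCAAT box (CCAAT, both strands) was found in 24 of the 40 (60.0%), against 42.8% and 41.1%. SOX strings (ACAAAG or ACAATG, both strands) were found in 10 of the 40 (25%), against 23.5% and 31.7%. CCAAT and SOX matches on opposite strands can share bases. A match is a description of letters and does not show binding.

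The 160 bases before the start are shown for 5 of the 9 genes, chosen because they hold the paired strings (Mcm5, Mcm6) or mark the ends of the ratio range among the 9 (Gins3 and Rfc3 lowest, Pola1 highest). E2F strings, read on either strand, are in capitals. The stretches lie at chr8:75109349-75109508 (+ strand) for Mcm5, chr1:128359706-128359865 (- strand) for Mcm6, chrX:93632156-93632315 (- strand) for Pola1, chr8:95633399-95633558 (+ strand) for Gins3 and chr5:151651209-151651368 (- strand) for Rfc3, each read 5′ to 3′ on the strand of the gene.
Mcm5: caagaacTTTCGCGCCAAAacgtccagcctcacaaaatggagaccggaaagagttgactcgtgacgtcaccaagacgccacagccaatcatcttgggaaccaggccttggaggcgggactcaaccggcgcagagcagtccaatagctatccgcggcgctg
Mcm6: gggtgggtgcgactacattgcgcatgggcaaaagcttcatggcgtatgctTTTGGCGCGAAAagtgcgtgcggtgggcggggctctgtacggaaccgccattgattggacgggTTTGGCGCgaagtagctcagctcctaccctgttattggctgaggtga
Pola1: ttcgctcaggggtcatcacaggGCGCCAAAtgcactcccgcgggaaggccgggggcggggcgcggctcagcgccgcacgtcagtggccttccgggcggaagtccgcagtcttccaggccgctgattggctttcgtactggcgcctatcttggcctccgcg
Gins3: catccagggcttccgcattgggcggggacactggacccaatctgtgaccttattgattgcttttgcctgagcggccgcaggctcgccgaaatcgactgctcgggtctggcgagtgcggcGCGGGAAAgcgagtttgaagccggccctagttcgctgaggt
Rfc3: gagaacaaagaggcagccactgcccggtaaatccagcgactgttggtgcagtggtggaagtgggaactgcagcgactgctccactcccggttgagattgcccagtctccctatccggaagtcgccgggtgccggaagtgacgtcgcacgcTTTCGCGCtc
In Mcm5 and Mcm6, a string on the coding strand and one on the other strand overlap and form a single run of capitals, and Mcm6 holds a further string nearer to the start. Gins3, Rfc3 and Pola1 hold 1 string each in these stretches. Genes with and without an E2F match had close relative log2 ratios, with a median of -0.04 in the 15 genes with a match (range -0.54 to 0.16) and -0.05 in the 25 without (range -0.28 to 0.22).

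**Figure D2:**
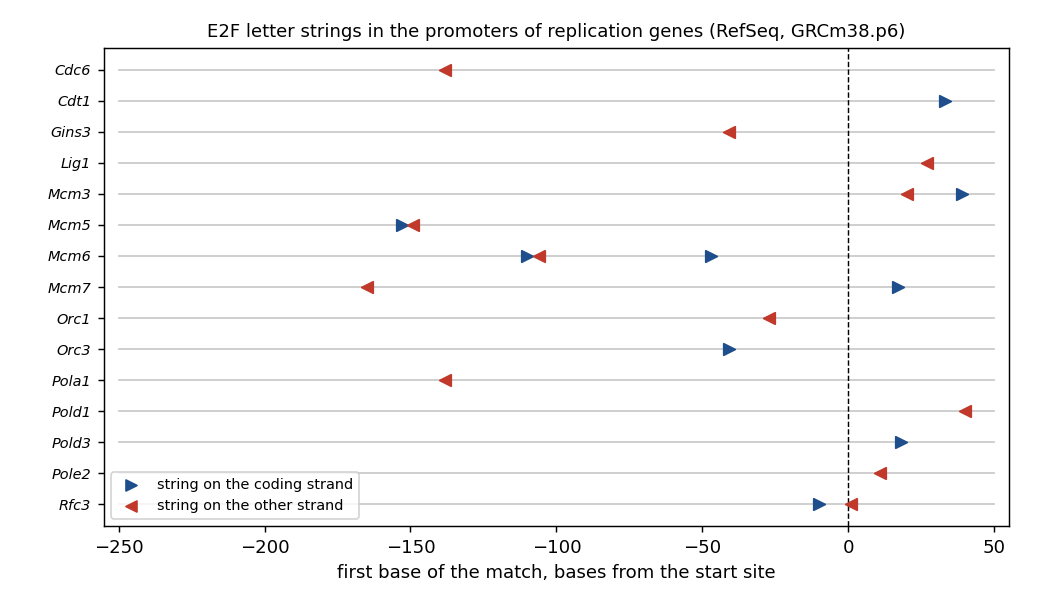
Position of each E2F string (triangle, first base of the match) in the promoter windows of the 15 replication genes that hold one, in bases from the start site (dashed line). Of these genes, 9 have a match before the start, and Mcm5 and Mcm6 each show a pair of strings in opposite orientation at almost the same place.

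The subunits of ORC, the complex that marks origins, were mostly at or slightly above the all-transcript median. Their median relative log2 ratio was 0.08, and 4 of the 6 were above 0. Orc1 stood at 6.10 nFPKM in WT and 6.00 nFPKM in cKO, by far the lowest level of the complex. The other five were between 33.7 nFPKM (Orc2) and 54.0 nFPKM (Orc6) in WT, and between 29.5 and 49.9 nFPKM in cKO. Orc5 stood at 37.4 and 38.0 nFPKM (0.13), Orc4 at 35.5 and 35.8 (0.12), Orc1 and Orc3 had relative log2 ratios of 0.08, Orc6 of -0.01 and Orc2 of -0.08. The Orc1 transcript was 8.86 times below that of Orc6 in WT and 8.32 times below in cKO. ORC1 is the subunit whose protein is removed during the cycle in mammalian cells, which these RNA values do not measure.

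Among the loading factors, Cdc6 stood at 15.0 nFPKM in WT and 14.4 nFPKM in cKO (0.05), and Cdt1 at 51.6 and 47.5 nFPKM (-0.01). Gmnn encodes geminin, the inhibitor that binds CDT1 and blocks a further round of loading. Gmnn stood at 91.3 and 77.0 nFPKM (-0.14), lower relative to the all-transcript median than Cdc6 and Cdt1, and it did not reach the 1.2-fold rule.

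The MCM2-7 genes, which encode the helicase ring in equal proportion in the protein complex, had a narrower range of relative ratios than ORC, GINS, polymerase alpha-primase, RFC and RPA, and a wider one than polymerase delta, ribonucleotide reductase and CAF-1, which have fewer subunits. Their relative log2 ratios ran from -0.09 (Mcm3) to 0.07 (Mcm6), with a median of -0.02, and the order of the 6 by level was the same in both genotypes. Mcm6 stood highest, at 206 nFPKM in WT and 201 in cKO. Mcm3 stood at 137 and 119 nFPKM, Mcm2 at 124 and 115, and Mcm4 at 116 and 106. Mcm5 stood at 98.1 and 88.5 nFPKM and Mcm7, the lowest, at 75.5 and 69.0. The highest and lowest subunit therefore differed 2.73-fold in WT and 2.92-fold in cKO, while no subunit differed by 1.1-fold between the genotypes after centring.

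The genes that activate the loaded helicase were near the all-transcript median with 1 exception. Gins3, a subunit of the GINS complex that joins CDC45 and the MCM ring, stood at 18.9 nFPKM in WT and 11.7 nFPKM in cKO. Its relative log2 ratio of -0.54 was the lowest of the 48 genes, and 3.48% of all transcripts stood lower. In the authors' deposited table its log2 fold change was -0.55, which is given beside the same pair of values and is not a second measurement. Its partners were nearer the all-transcript median. Gins1 stood at 38.0 and 33.7 nFPKM (-0.06), Gins2 at 56.9 and 52.0 (-0.02) and Gins4 at 50.7 and 48.4 (0.04). Gins3 was the least abundant GINS transcript in both genotypes, and the gap between it and Gins2, the most abundant, was 3.02-fold in WT and 4.43-fold in cKO. Cdc45 stood at 42.0 and 38.5 nFPKM (-0.02), Cdc7 at 36.5 and 32.5 (-0.06), and Mcm10, which helps the activated helicase unwind, at 24.3 and 21.8 (-0.04).

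The initiating polymerase was the role with the highest median, 0.11. Prim2, the large primase subunit, stood at 29.2 nFPKM in WT and 33.3 nFPKM in cKO, and its relative log2 ratio of 0.29 was the highest of the 48 genes. Pola1, the catalytic subunit of polymerase alpha, stood at 40.5 and 42.1 nFPKM (0.16), and its partner Pola2 at 33.9 and 33.0 (0.07). Prim1, the catalytic primase subunit, stood at 58.2 and 51.7 nFPKM (-0.06), on the other side of the median from Prim2. Prim1 remained the most abundant of the 4 in cKO, and the spread between highest and lowest was 1.99-fold in WT and 1.57-fold in cKO.

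The elongating polymerases were mostly on the lower side, with a median of -0.09. For polymerase delta, which synthesizes the lagging strand, Pold3 stood at 37.0 and 29.7 nFPKM (-0.20), and Pold1 (42.8 and 37.1 nFPKM) and Pold2 (73.2 and 63.6 nFPKM) both had a relative log2 ratio of -0.09. For polymerase epsilon, which synthesizes the leading strand, Pole2 stood at 26.8 and 22.5 nFPKM (-0.14) and the catalytic Pole at 35.2 and 34.4 (0.07). All 3 polymerase delta genes were below the all-transcript median, and none reached 1.2-fold.

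Pcna, the sliding clamp, stood at 110 nFPKM in WT and 88.0 nFPKM in cKO, with the relative log2 ratio at -0.21. Rfc3, a small subunit of the clamp loader, stood at 63.2 and 45.7 nFPKM. Its relative log2 ratio of -0.35 was the second lowest of the 48 genes and past 1.2-fold. The other four loader subunits were nearer the median, with Rfc5 at 38.8 and 33.9 nFPKM (-0.09), Rfc2 at 98.4 and 88.9 (-0.04), Rfc1 at 61.2 and 57.5 (0.02) and Rfc4 at 61.9 and 59.9 (0.06). Rfc3 thus went from above Rfc1 and Rfc4 in WT to below both in cKO.

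RPA coats single-stranded DNA at the fork. Rpa2, its middle subunit, stood at 77.6 and 60.7 nFPKM (-0.24), Rpa1 at 111 and 99.0 (-0.06) and Rpa3 at 54.9 and 53.7 (0.07). Fen1, the nuclease that trims the flaps of Okazaki fragments, stood at 56.8 nFPKM in WT and 43.4 nFPKM in cKO, with the relative log2 ratio at -0.28. Lig1, the ligase that joins the fragments, stood at 77.7 and 64.2 nFPKM (-0.17). The pair had the lowest median of the 11 roles, -0.22. The 8 genes with the lowest relative ratios were Gins3, Rfc3, Fen1, Rpa2, Pcna, Pold3, Tk1 and Lig1. This order rests on 1 value per genotype, and for all of them but Gins3 the ratio was inside the middle 90% of transcripts at similar level (-0.37 to 0.42).

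**Figure D3:**
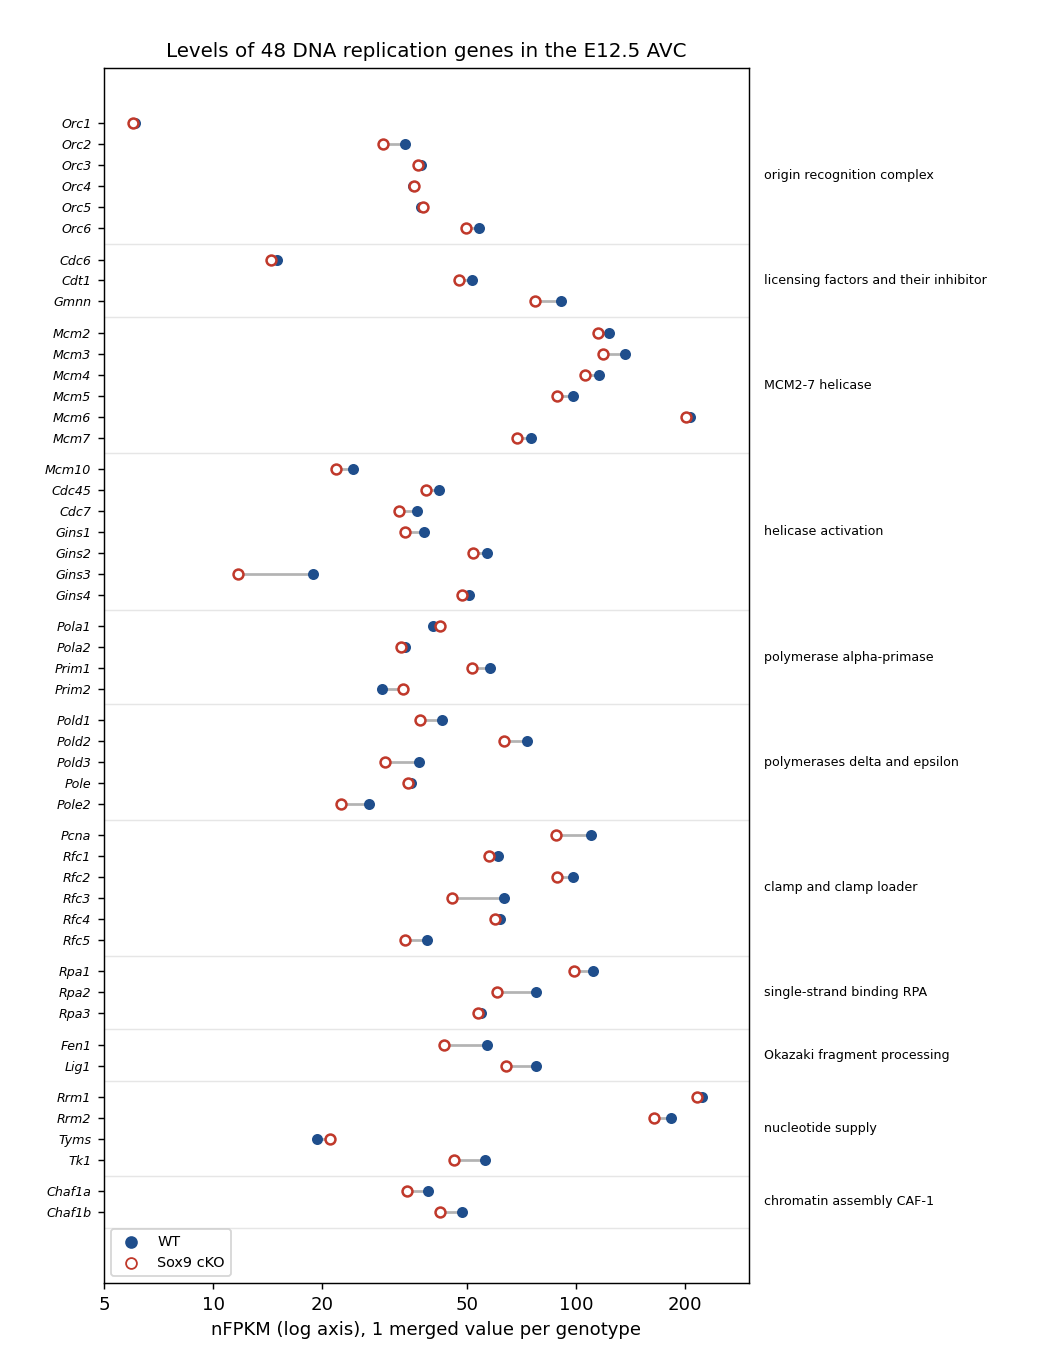
Level of each of the 48 genes in nFPKM (log axis) in WT (filled) and Sox9 cKO (open), grouped by role, with 1 merged value per genotype and no error. Most pairs lie close together with cKO to the left, the side on which the median of all transcripts also lies, and the widest gap belongs to Gins3 (18.9 and 11.7 nFPKM).

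Genes of nucleotide supply ranged widely in level and stood on both sides of the all-transcript median. Ribonucleotide reductase, which makes deoxynucleotides, had the first and the third highest levels of the 48, with Rrm1 at 223 and 216 nFPKM (0.06) and Rrm2 at 183 and 164 (-0.05). Tyms, the thymidylate synthase, stood at 19.3 and 21.0 nFPKM, and its relative log2 ratio of 0.22 was the second highest of the list. Tk1, the thymidine kinase of the salvage route, stood at 56.1 and 46.2 nFPKM (-0.17). The 2 subunits of CAF-1, which places histones behind the fork, differed by the same small amount, with Chaf1a at 39.2 and 34.2 nFPKM and Chaf1b at 48.5 and 42.3, both at -0.09.

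The rest of the pathway was described with 48 other genes of replication, all of which had a value. Their median relative log2 ratio was -0.03, 2 were at least 1.2-fold higher, 3 at least 1.2-fold lower and none 2-fold. In either direction this was 10.4% past 1.2-fold, against 27.5% of all transcripts. The lower ones were Dscc1, of an alternative clamp loader (11.9 and 7.76 nFPKM, -0.45), Timeless, of the fork protection complex (32.2 and 22.8 nFPKM, -0.37), and Tonsl, which acts at stalled forks (13.6 and 9.65 nFPKM, -0.35). Pold4, the smallest subunit of polymerase delta, stood on the higher side (16.4 and 20.0 nFPKM, 0.38), opposite to Pold1, Pold2 and Pold3. Ticrr, which is needed to load CDC45 and is the second on the higher side, stood at 13.9 and 15.8 nFPKM (0.28) and was named after its value was seen.

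E2F and pocket protein genes, the regulators of S-phase transcription, had a median of 0.03 over 13 genes, with 1 at least 1.2-fold higher and none lower (7.69% in either direction, against 27.5% of all transcripts). Of the 13, 9 were above the all-transcript median and 4 below. The largest absolute ratios were all on the higher side. E2f2 stood at 10.6 and 12.3 nFPKM (0.30), Tfdp2 at 23.9 and 25.8 (0.21), E2f7 at 16.8 and 17.8 (0.18) and E2f8 at 39.1 and 40.8 (0.17). E2f1 was singled out after its value was seen, and was at 23.4 and 21.8 nFPKM (0.01).

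Genes of mitosis, the later phase of the cycle, lay on the other side of the all-transcript median from the replication genes. Of 20 genes, 14 were above it and 6 below, with a median of 0.11, while 17 of the 48 replication genes were above and 31 below, with a median of -0.04. The proliferation marker Mki67 stood at 202 and 228 nFPKM (0.28), the spindle checkpoint kinase Bub1 at 58.8 and 64.0 (0.22), the cyclin Ccnb2 at 105 and 113 (0.21) and the spindle protein Nusap1 at 63.7 and 68.2 (0.20). Of the 20, 1 was past 1.2-fold (background 27.5%). With 1 value per genotype the difference between both medians has no error and was not tested.

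**Figure D4:**
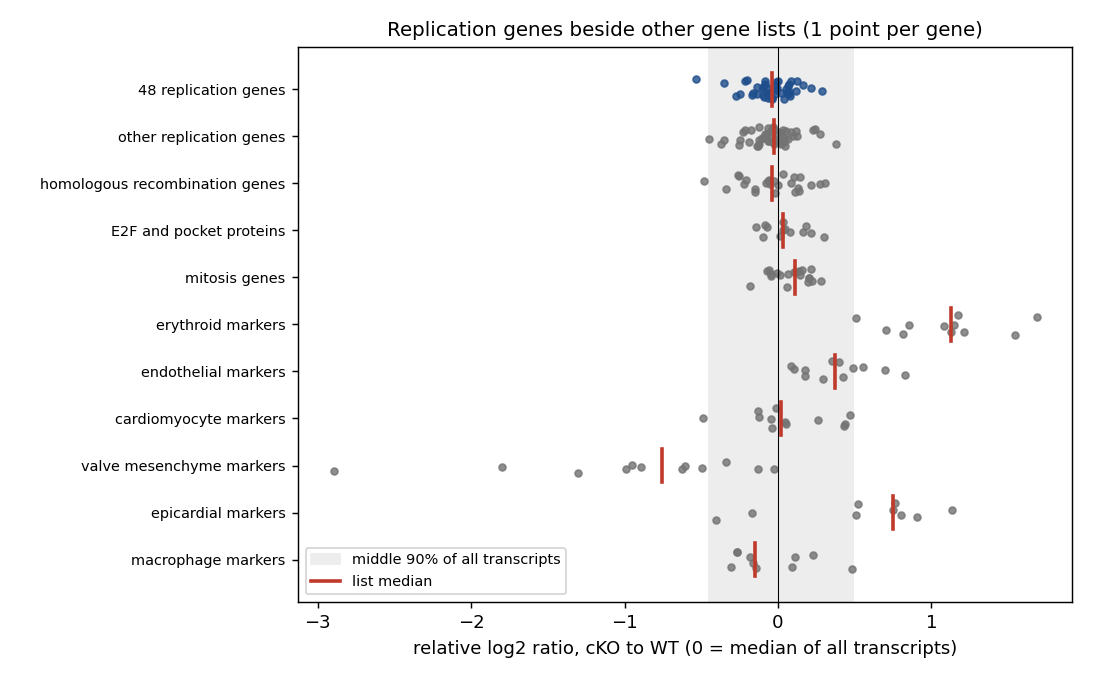
Relative log2 ratio of cKO to WT for each gene (point) of the 48 replication genes and of 10 other lists, with the list median as a red bar and the middle 90% of all transcripts in grey. The replication genes cluster around -0.04, mitosis genes around 0.11, and marker lists of cell types spread further to both sides.

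Marker lists of several cell types held larger shares past 1.2-fold than the replication genes (8.33%) and all transcripts (27.5%). Of 14 erythroid markers 11 had a value, and all 11 were at least 1.2-fold higher, and their summed level was 41094 nFPKM in WT and 93231 nFPKM in cKO. The endothelial list had 8 of 12 at least 1.2-fold higher (sum 1091 and 1320 nFPKM), and the epicardial list 7 of 9 higher and 1 lower (sum 305 and 389 nFPKM). The valve mesenchyme list had 10 of 12 at least 1.2-fold lower (sum 4016 and 2562 nFPKM). Cardiomyocyte markers were near the background, with 3 of 12 higher and 1 lower (33.3% in either direction, sum 38976 and 40120 nFPKM), and macrophage markers had 1 of 10 higher and 3 lower (40% in either direction, sum 183 and 156 nFPKM). No marker with a value was at 0 in either genotype. Their part in the replication values was not tested. In these bulk values, the share of cycling cells and the RNA of these genes per cycling cell cannot be told apart. Mesenchyme, endothelium, myocardium and blood cells are measured together.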

How the data were processed

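The expression table held 1 FPKM value per transcript and genotype, normalized further (nFPKM) and merged over duplicates by the authors, per the file headers. It also held the authors' log2 fold change of cKO to WT, without a p-value. TopHat2, Cufflinks, edgeR and the build mm9 are listed in the submitters' processing notes, with no versions or roles. How nFPKM was derived from FPKM is not stated there. Depth is unknown.

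A pseudocount of 1 was added before the log2 ratio was taken, so ratios of low genes are understated. Transcripts under 1 nFPKM in both genotypes were left out, 904 in all and none of the 48 genes. Ratios were centred on the all-transcript median. The authors' deposited log2 fold change exceeded the plain log2 ratio of both columns by a median of 0.11. Calls were made by size (1.2-fold and 2-fold), since 1 value per genotype allows no test. For a symbol with several transcripts, that with the highest mean was used. Listed symbols not in the table were matched by RefSeq accession. Values are given for the 10 highest and 10 lowest of the 48 genes, the 5 most abundant and the extremes of each complex, with the others beside them by role, and for up to 4 genes with the largest absolute ratio in other lists. Marker lists are given by counts and sums, and a gene that the rule names is not reported here. The 48 genes and all lists were chosen with earlier results of these data known. Alternatives were the pseudocount, the filter, the centring, the authors' fold change, summed transcripts and rescaling without globins. The SOX9 ChIP-seq peak lists, on mm9, were not used here because no mm9 gene positions were at hand. Python 3.11.15, numpy 2.4.6, pandas 2.3.3 and matplotlib 3.10.9 were used, and the ratio step was tested on simulated data.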

Additional observations from a re-analysis of the deposited data

How the results depend on the processing

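The median of the 48 genes and each gene's ratio stayed within 0.1 (log2) of the given value with a pseudocount of 0.1, no filter, a filter of 3 nFPKM, the authors' fold change, summed transcripts, rescaling without globins and, chosen after seeing the data, centring on transcripts of similar level. Each of the 48 genes has 1 transcript row and lies above 3 nFPKM. The filters, the summing and the centring on transcripts of similar level could therefore only shift all 48 ratios together. Rescaling without globins multiplied every cKO value by the same factor, so apart from the pseudocount it was also such a shift. The authors' fold change exceeded the plain log2 ratio of both columns by a median of 0.11. The centring subtracts a median of -0.11, so the closeness of the authors' values is not an independent check. Without centring all 48 ratios moved down, the median was -0.15, and the counts past 1.2-fold were 0 higher and 8 lower. With a pseudocount of 5, Gins3 moved to -0.43 and 0 genes were 1.2-fold higher. Folds chosen after seeing the data gave 3 higher and 9 lower at 1.1-fold, and 0 higher and 0 lower at 1.5-fold. Restricting promoters to bases before the start lowered the genes with E2F strings from 15 to 9. The genes lost (Cdt1, Lig1, Mcm3, Pold1, Pold3 and Pole2) hold their strings only after the start. Counts for CCAAT and SOX strings stayed at 24 and 10 genes. No paired analysis was possible because each genotype has 1 merged value, and leaving out a library could not be run for the same reason. Depth sets no stated limit here because it is unknown.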

Other observations

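Homologous recombination repairs broken and stalled forks in S phase, and its genes were described with a list of 26 chosen after seeing the data. Their median relative log2 ratio was -0.04, and 2 genes were past 1.2-fold on each side, 15.4% in all against 27.5% of all transcripts. The Fanconi gene Fancd2 stood at 18.9 nFPKM in WT and 21.8 nFPKM in cKO (0.30), while Fancl, the ubiquitin ligase of the same pathway, stood at 27.2 and 19.7 (-0.34). Dmc1, a recombinase of meiosis, had the largest absolute ratio of the list at a low level, 2.55 and 1.36 nFPKM (-0.48).

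Target genes of p53, the factor that responds to DNA damage, were described with 19 genes, also chosen after seeing the data. Their median was 0.14, with 5 at least 1.2-fold higher (background 14.4%) and 1 lower (background 13.1%). In either direction this was 31.6%, near the 27.5% of all transcripts. Cdkn1a, an inhibitor of cyclin-dependent kinases whose protein also binds PCNA, stood at 20.7 and 28.8 nFPKM (0.56). Trp53inp1 was on the other side, at 38.9 and 26.4 nFPKM (-0.44). Eda2r stood at 7.81 and 9.26 nFPKM (0.33) and Plk2 at 138 and 157 (0.28), both on the higher side. Of the 19, 11 were above the all-transcript median and 8 below.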
